A study of Homo sapiens with 14 samples.

Results

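The antiviral OAS, IFIT and MX1 loci of the human genome were examined in open-chromatin profiles of SUM149PT breast cancer cells. The genes were OAS1, OAS2, OAS3, IFIT1, IFIT2, IFIT3, IFIT5, MX1 and IFI44L. Members were all accessible regions of the deposited table that start in 4 fixed windows around these genes, on chromosomes 12, 10, 21 and 1 of hg38. The windows held 12 of 65774 regions, with 4 in the OAS window, 7 in the IFIT window, 1 in the IFI44L window and 0 in the MX1 window. The rule for the windows used positions and no measured value, but the members were chosen with earlier results of these data known. All 12 regions passed the filter on low counts.

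The study used ATAC-seq, in which the transposase Tn5 inserts sequencing adapters where chromatin is open. It covered 7 groups of untreated cells with 2 libraries each, 14 libraries in all. The groups were the clones M2, M1, EM3, EM2, EM1 and E, and the unselected SUM149PT line, called Parental. SUM149PT is an established line of an inflammatory breast cancer without oestrogen or progesterone receptors, and all 6 clones were derived from it. The series title places the work in the epithelial-mesenchymal transition, and what the letters in the clone names stand for is not stated. Each clone is a single isolate, so a difference from Parental is a difference of that clone. Whether the libraries of a group came from separate cultures is not given, so the tests rest on differences between libraries that may be technical.

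Interferons are cytokines released by cells that sense viral nucleic acid. Type I interferon signals through its receptor and the kinases JAK1 and TYK2 to a complex of transcription factors that includes STAT2 and IRF9 and binds the interferon-stimulated response element (ISRE) at target genes. The OAS enzymes make oligoadenylates that switch on RNase L, the IFIT proteins bind viral RNA, and MX1 is a GTPase that blocks viral replication. Some tumour cells keep these genes active without an infection.

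The sequences just before the start sites are shown because the ISRE is the element through which these genes are known to answer interferon, and because regions of the data lie over those of OAS3, IFIT3, IFIT1 and IFI44. That of OAS1, which no region overlaps, is shown for comparison. They run 5′ to 3′ on the plus strand, end at the base before an annotated start, and come from RefSeq promoter windows of GRCh38.p14. The searched ISRE core was GAAA, any 2 bases and GAAA again, on both strands, and its matches, which read TTTC, 2 bases and TTTC when they lie on the minus strand, are in capitals. Positions are chr12:112938224-112938473 for OAS3, chr10:89327747-89327996 for IFIT3, chr10:89392373-89392622 for IFIT1, chr1:78649539-78649788 for IFI44 and chr12:112906712-112906961 for OAS1.
OAS3: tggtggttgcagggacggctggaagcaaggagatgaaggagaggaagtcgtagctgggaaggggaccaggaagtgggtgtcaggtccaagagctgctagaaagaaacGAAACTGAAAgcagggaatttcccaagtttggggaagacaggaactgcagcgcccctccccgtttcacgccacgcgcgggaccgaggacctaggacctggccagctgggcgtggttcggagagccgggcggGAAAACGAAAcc
IFIT3: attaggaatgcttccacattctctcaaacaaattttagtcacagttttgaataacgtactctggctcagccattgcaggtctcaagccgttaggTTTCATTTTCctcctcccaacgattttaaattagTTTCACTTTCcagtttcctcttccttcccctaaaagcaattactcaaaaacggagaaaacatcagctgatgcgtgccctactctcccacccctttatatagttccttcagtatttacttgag
IFIT1: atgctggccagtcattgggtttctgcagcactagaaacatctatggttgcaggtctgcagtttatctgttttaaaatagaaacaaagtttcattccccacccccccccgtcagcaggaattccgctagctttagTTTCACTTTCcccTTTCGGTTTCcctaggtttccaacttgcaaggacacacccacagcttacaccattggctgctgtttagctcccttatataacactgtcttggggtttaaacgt
IFI44: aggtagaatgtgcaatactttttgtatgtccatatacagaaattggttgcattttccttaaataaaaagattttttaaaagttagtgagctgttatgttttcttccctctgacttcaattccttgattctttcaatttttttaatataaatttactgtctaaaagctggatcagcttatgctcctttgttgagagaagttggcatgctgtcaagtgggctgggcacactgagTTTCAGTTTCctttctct
OAS1: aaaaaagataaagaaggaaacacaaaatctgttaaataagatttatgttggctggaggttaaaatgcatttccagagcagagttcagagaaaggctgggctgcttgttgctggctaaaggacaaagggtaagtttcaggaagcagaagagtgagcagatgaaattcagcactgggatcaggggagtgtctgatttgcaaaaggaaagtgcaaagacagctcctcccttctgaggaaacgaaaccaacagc
In OAS3 the core began 143 and 12 bases before the start, in IFIT3 156 and 122 bases, in IFIT1 116 and 103 bases, and in IFI44 18 bases. IFIT5 had cores 45, 19 and 4 bases before its start, and IFI44L, at whose start no region was called, had them 164 and 73 bases before. Of the 9 member genes, 7 had a promoter window of 300 bases (250 before and 50 after the start), and 6 of these 7 held an ISRE core in a window. The core occurred in 3.57% of all 35116 promoter windows. That is a share of windows, whereas a member gene counted if any of its windows held a match, and MX1 had 3 windows and IFIT3 had 2. The OAS1 window held no match to these letters. Near the end of its printed sequence, GAAA occurs 2 times closer together than the search allowed (gaaacgaaa). The search therefore does not show that OAS1 lacks an ISRE. The OAS1 window also held the STAT-type motif TTCNNNGAA 168 bases before the start, a motif found in 7.66% of windows. OAS2 and IFIT2 are named only. The matches are descriptions of sequence, and binding was not measured.

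Library totals lay between 8138944 and 16786823 counts. Levels are given in CPM, that is, relative to TMM-adjusted library size, and describe a region's accessibility and not the gene's RNA. In these bulk libraries, fewer cells with an open region and less opening per cell cannot be told apart. Replicates correlated at 0.95 to 0.97, and at 0.87 in E. E replicate 1 stood apart, because it correlated at 0.54 with both M2 libraries, against 0.35 and 0.36 for E replicate 2. Member calls in E are therefore also counted without E replicate 1. Single pathway genes and regions outside the windows are given in E with both libraries only. EPCAM, an epithelial adhesion gene, had 0.764 ± 0.11 CPM in M2 and 9.63 ± 0.068 CPM in M1, against 49.4 ± 1.6 CPM in Parental (SD, n = 2 each). Of the 6 epithelial markers, KRT18 alone was called higher in M2 (adjusted p = 0.0324 by edgeR's quasi-likelihood test). KRT18 had 39.9 ± 0.84 CPM in M2, most of the M2 sum over the 6 markers, against 27.3 ± 9.6 CPM in Parental. The other epithelial markers were called lower in M2 and M1. Summed over the 6 epithelial markers, libraries held 47.4 to 47.6 CPM in M2, 42.3 to 43.5 CPM in M1 and 158 to 233 CPM in the EM clones and E, against 239 CPM in both Parental libraries. Summed over the 3 of 4 mesenchymal markers with a region (VIM, FN1 and ZEB1), they held 128 to 140 CPM in M2, 116 to 122 CPM in M1, 87.8 to 115 CPM in EM2, 63.4 to 82.5 CPM in EM3 and EM1 and 48.9 to 61.0 CPM in E, against 57.4 to 61.9 CPM in Parental. VIM and FN1 were called higher in M2, and ZEB1 was not called there (log2 change 0.12, adjusted p = 0.555 by edgeR). Of 10 blood cell markers, 4 had a region at a gene end. Their summed levels were 64.0 to 76.7 CPM in M2, 88.0 to 130 CPM in the other clones, and 108 to 116 CPM in Parental. CD3E and CD14 were called lower in M2, SPI1 was not called, and GATA1 was called higher (12.3 ± 0.28 CPM, against 4.94 ± 1.1 CPM in Parental, edgeR adjusted p = 0.00193). The part of these markers in the results was not tested.

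The OAS genes encode oligoadenylate synthetases of different sizes that lie side by side on chromosome 12. A region 1979 bp before the start of OAS1, the smallest enzyme of the family (chr12:112904571-112904983, between genes), separated the groups most among the 12 regions. It had 19.4 and 19.1 CPM in the M2 libraries, 10.8 and 7.00 CPM in M1, 2.70 and 4.13 CPM in EM2, and 4.49 and 6.92 CPM in E, against 0.363 and 0.255 CPM in Parental. EM3 had 0.174 and 0.403 CPM and EM1 had 0.178 and 0.139 CPM. The region was thus open in both libraries of M2, M1, EM2 and E, and near the floor in all libraries of EM3, EM1 and Parental, with no overlap between these sets. Compared with Parental, the log2 change was 5.92 (SE 0.48) in M2 with adjusted p = 3.42e-07, 4.80 (SE 0.49) in M1 with adjusted p = 5.17e-06, 3.43 (SE 0.51) in EM2 with adjusted p = 0.00116, and 4.17 (SE 0.50) in E with adjusted p = 0.000633, by edgeR's quasi-likelihood test. The fold rests on 7 counts in both Parental libraries together, against 419 counts in M2, so its size is imprecise. In the order of levels, M2 exceeded M1 (adjusted p = 0.0123) and EM2 exceeded Parental, while M1 and E (adjusted p = 0.162) and E and EM2 (adjusted p = 0.182) did not differ beyond their spread. The M2 excess over M1 was not called without M2 replicate 2 or without M1 replicate 2.

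Inside OAS1, 9333 bp past its start, a further region (chr12:112916295-112916763) behaved otherwise. It had 16.3 and 21.1 CPM in E, against 8.52 and 8.06 CPM in Parental, and 4.74 to 11.7 CPM in the libraries of M2, M1, EM3, EM2 and EM1. E was the highest group and its libraries overlapped with none of the others. The log2 change in E was 1.17 (SE 0.34) with adjusted p = 0.0434 by edgeR's quasi-likelihood test, and the call was lost without either E library (adjusted p = 0.072 and 0.114) or either Parental library (adjusted p = 0.162 and 0.217), and without 5 of the 6 EM libraries. M2 averaged 8.21 ± 4.9 CPM and Parental 8.29 ± 0.33 CPM (SD, n = 2 each). The M2 libraries, at 11.7 and 4.74 CPM, lay on either side of Parental.

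OAS3 encodes the largest synthetase, the form that responds best to long double-stranded RNA. The region over its start (chr12:112938163-112938685), which spans the sequence printed above, had 16.9 and 22.2 CPM in M2, 7.87 and 10.2 CPM in M1 and 10.3 and 12.1 CPM in E, against 5.26 and 5.77 CPM in Parental. The EM libraries lay between 5.84 and 7.18 CPM. Both M2 libraries were above those of all other groups, and the log2 change from Parental was 1.83 (SE 0.25) in M2 with adjusted p = 3.04e-05, 0.72 (SE 0.25) in M1 with adjusted p = 0.0333 and 1.02 (SE 0.25) in E with adjusted p = 0.0218. M2 also exceeded E (adjusted p = 0.0111 by edgeR's quasi-likelihood test), in a comparison where 29.2% of all regions were called higher. This call was lost without M2 replicate 2 or E replicate 1. It was made without removing the median change over the 10 Mb bin that holds the locus. With that median removed, the OAS3 change from Parental was 0.93 in M2 and 0.73 in E.

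OAS2 encodes the middle-sized synthetase. The region over its lower end (chr12:112978275-112978923) had 19.1 and 22.5 CPM in M2 and 9.71 and 3.62 CPM in E, against 1.09 and 1.36 CPM in Parental. M1 had 2.02 and 2.18 CPM, and the EM libraries had 0.605 to 3.47 CPM. M2 stood above every other library, and in CPM the E libraries differed from each other more than those of any other group did, with the higher value in E replicate 1. The log2 change from Parental was 4.07 (SE 0.58) in M2 with adjusted p = 4.04e-05 and 2.43 (SE 0.58) in E with adjusted p = 0.0185. Without E replicate 1 the change in E was 1.56 (adjusted p = 0.162). M1, at a log2 change of 0.78 (adjusted p = 0.335), was not called here, and M2 exceeded M1 by 3.30 (SE 0.54, adjusted p = 0.000218), a call that held without each of the 14 libraries in turn.

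**Figure D1:**
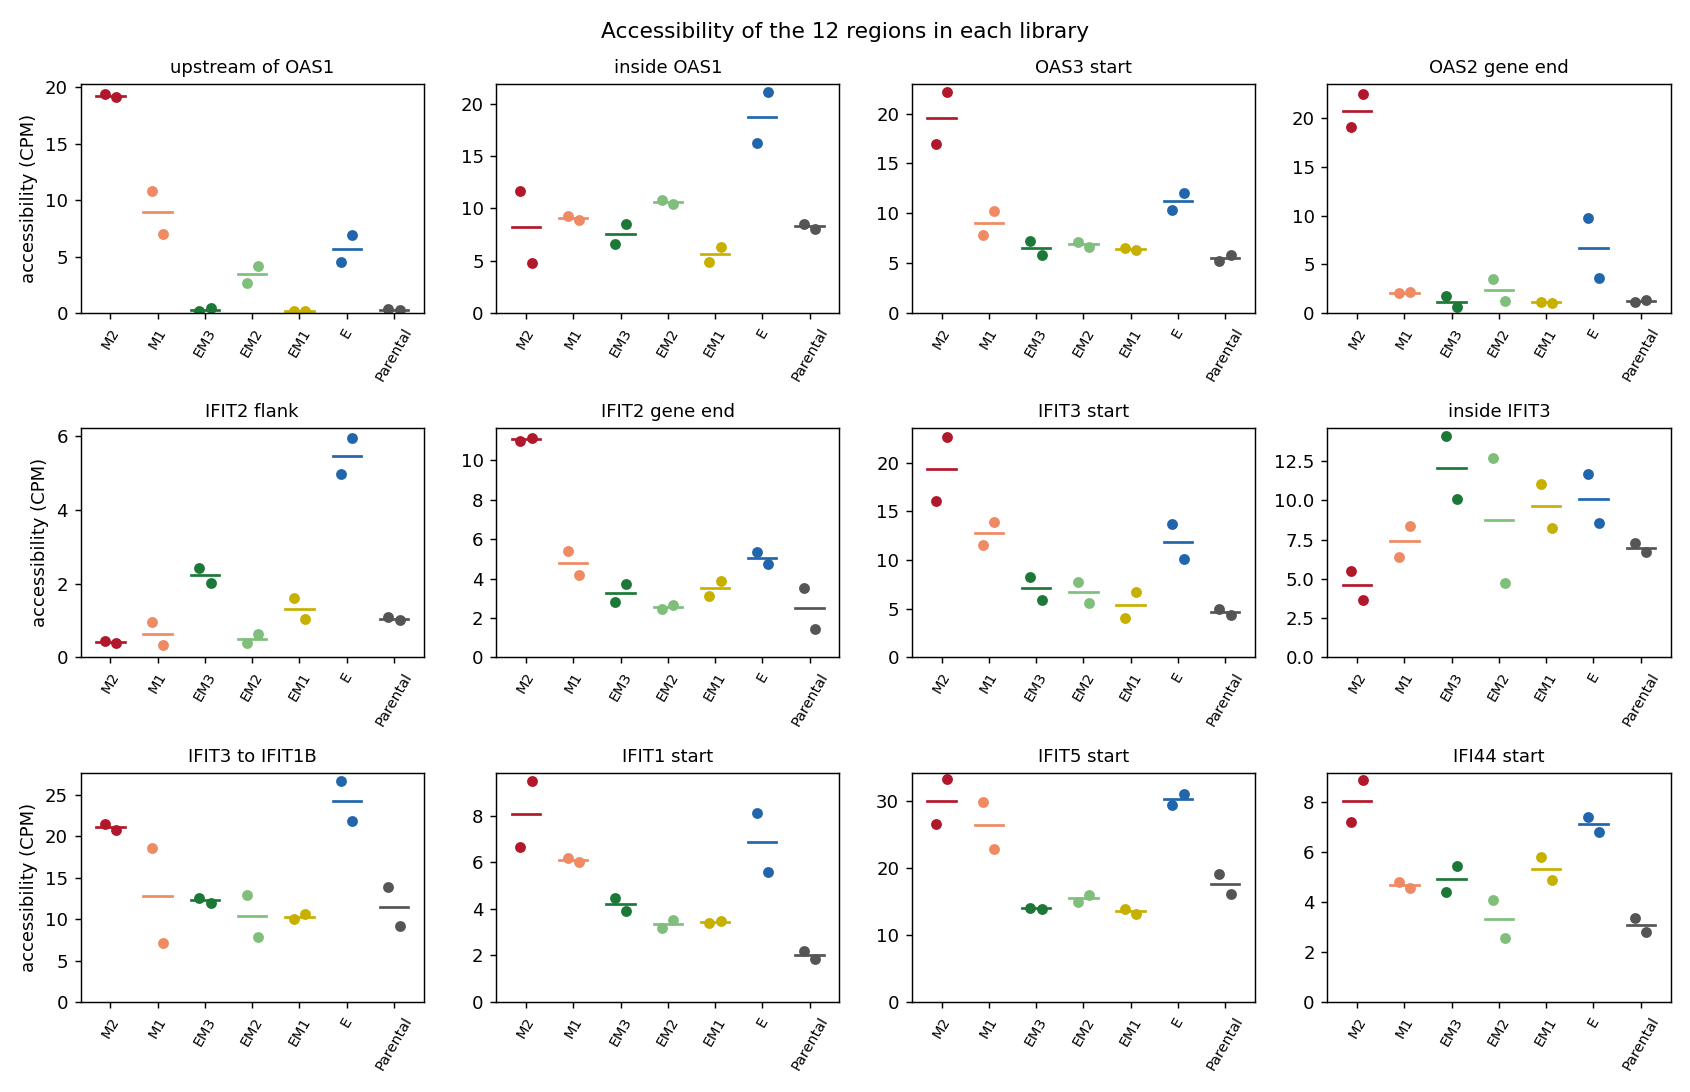
Accessibility in CPM (y axis) of the 12 regions, with a point for each of the 14 libraries, a line at the group mean, and groups on the x axis. The region upstream of OAS1 is between 2.70 and 19.4 CPM in M2, M1, EM2 and E and at most 0.403 CPM in the other groups.

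The IFIT genes on chromosome 10 encode proteins with tetratricopeptide repeats, and IFIT1, IFIT2 and IFIT3 act as a complex on foreign RNA. All 7 regions of this window also lie within the annotated span of LIPA, a lysosomal lipase gene. The table used for annotation gives no exons, so exon and intron were not told apart. At the start of IFIT3, which stabilises IFIT1 (chr10:89327820-89328471), accessibility was 16.0 and 22.6 CPM in M2, 11.6 and 13.9 CPM in M1 and 13.7 and 10.1 CPM in E, against 4.99 and 4.41 CPM in Parental. EM libraries held 4.01 to 8.22 CPM. Libraries of M2, M1 and E were all above those of the EM clones and Parental. The log2 change was 2.04 (SE 0.32) in M2 with adjusted p = 9.95e-05, 1.44 (SE 0.32) in M1 with adjusted p = 0.00264 and 1.34 (SE 0.33) in E with adjusted p = 0.0205.

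IFIT1 encodes the member that recognises RNA caps lacking methylation. The region over its start (chr10:89392310-89392683) had 6.64 and 9.47 CPM in M2, 6.17 and 6.01 CPM in M1 and 8.13 and 5.60 CPM in E, against 2.18 and 1.87 CPM in Parental, where it was lowest. The EM libraries had 3.16 to 4.46 CPM, all above both Parental libraries. The log2 change was 2.00 (SE 0.32) in M2 with adjusted p = 0.000117, 1.59 (SE 0.32) in M1 with adjusted p = 0.00136 and 1.76 (SE 0.33) in E with adjusted p = 0.00595. In EM3, EM2 and EM1 the log2 changes were 1.06, 0.72 and 0.76, and none passed the test (adjusted p = 0.104, 0.213 and 0.434).

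IFIT2 encodes a family member linked to cell death, and a region over its lower end (chr10:89302001-89302281) had 10.99 and 11.15 CPM in M2, against 3.54 and 1.44 CPM in Parental. M1 had 5.42 and 4.16 CPM and E had 5.34 and 4.72 CPM, and the EM libraries had 2.47 to 3.90 CPM. M2 was again above all other libraries, and it was called against Parental (log2 change 2.16, SE 0.38, adjusted p = 0.000254) and against E (adjusted p = 0.0166). The changes in M1 and E, 0.94 and 1.02, did not pass the test (adjusted p = 0.0678 and 0.113). They depended on which Parental library was kept: without Parental replicate 1 they were 1.72 and 1.79 and called (adjusted p = 0.0104 and 0.0493), and without Parental replicate 2 they were 0.44 and 0.54. The call of M2 against E was lost without M2 replicate 2 or E replicate 2.

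IFIT5 encodes a relative that binds RNA with a triphosphate end. The widest of the regions (chr10:89414440-89415485) covers its start and an end of LIPA, so the gene it belongs to is uncertain. It had 26.6 and 33.2 CPM in M2, 29.8 and 22.9 CPM in M1 and 29.4 and 31.0 CPM in E, against 19.0 and 16.1 CPM in Parental. The EM libraries, at 13.2 to 15.9 CPM, were below every Parental library. Log2 changes were small, at 0.77 (SE 0.19) in M2 with adjusted p = 0.00281, 0.58 (SE 0.19) in M1 with adjusted p = 0.0248 and 0.78 (SE 0.19) in E with adjusted p = 0.0205. In the order of levels the only neighbours that differed were M1 and Parental.

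The 3 remaining IFIT-window regions lie away from gene ends, and none was called in M2 or M1 against Parental in the fit of all 14 libraries. A region 6035 bp below IFIT2 (chr10:89295844-89296011) had 4.97 and 5.93 CPM in E, against 1.09 and 1.02 CPM in Parental, with 0.33 to 2.43 CPM elsewhere. E was highest there, with a log2 change from Parental of 2.36 (SE 0.53, adjusted p = 0.0137 by edgeR's quasi-likelihood test). The change was 2.48 without E replicate 1, and the call needed both Parental libraries. E and EM3, the next group in the order of levels, did not differ beyond their spread (adjusted p = 0.0801 by the same test). A region inside IFIT3 (chr10:89337584-89337867) had 3.67 to 14.1 CPM over all libraries and was not called in the test for any difference among the 7 groups (adjusted p = 0.104). The other 11 of the 12 regions were called in that test, where 51676 of the 65771 tested regions were. In pairs, edgeR called the region inside IFIT3 lower in M2 than in EM3 (log2 change -1.42, adjusted p = 0.00829) and EM1 (-1.08, adjusted p = 0.0336). It was also called lower in M2 than in E (-1.15, adjusted p = 0.0299), a call lost without M2 replicate 2 or E replicate 1. A region between IFIT3 and IFIT1B (chr10:89374079-89374865) had 21.4 and 20.8 CPM in M2, 18.6 and 7.07 CPM in M1 and 26.7 and 21.9 CPM in E, against 13.9 and 9.16 CPM in Parental. As at IFIT5, this region had its highest means in E, M2 and M1, in that order. Its log2 changes of 0.87 in M2 and 1.08 in E did not pass the test (adjusted p = 0.0537 and 0.0833), but both lay close to the threshold. With only the 4 libraries of each comparison fitted, both were called (adjusted p = 0.00605 and 0.0468 by edgeR), and DESeq2 called that in M2 (adjusted p = 0.0375). With the median change over the surrounding 10 Mb bin removed, they were 0.42 and 0.81 and not called (edgeR adjusted p = 0.347 and 0.222). They were 1.20 and 1.40 without Parental replicate 1, and 0.58 and 0.84 without Parental replicate 2. Without E replicate 1 the change in E was 0.92.

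**Figure D2:**
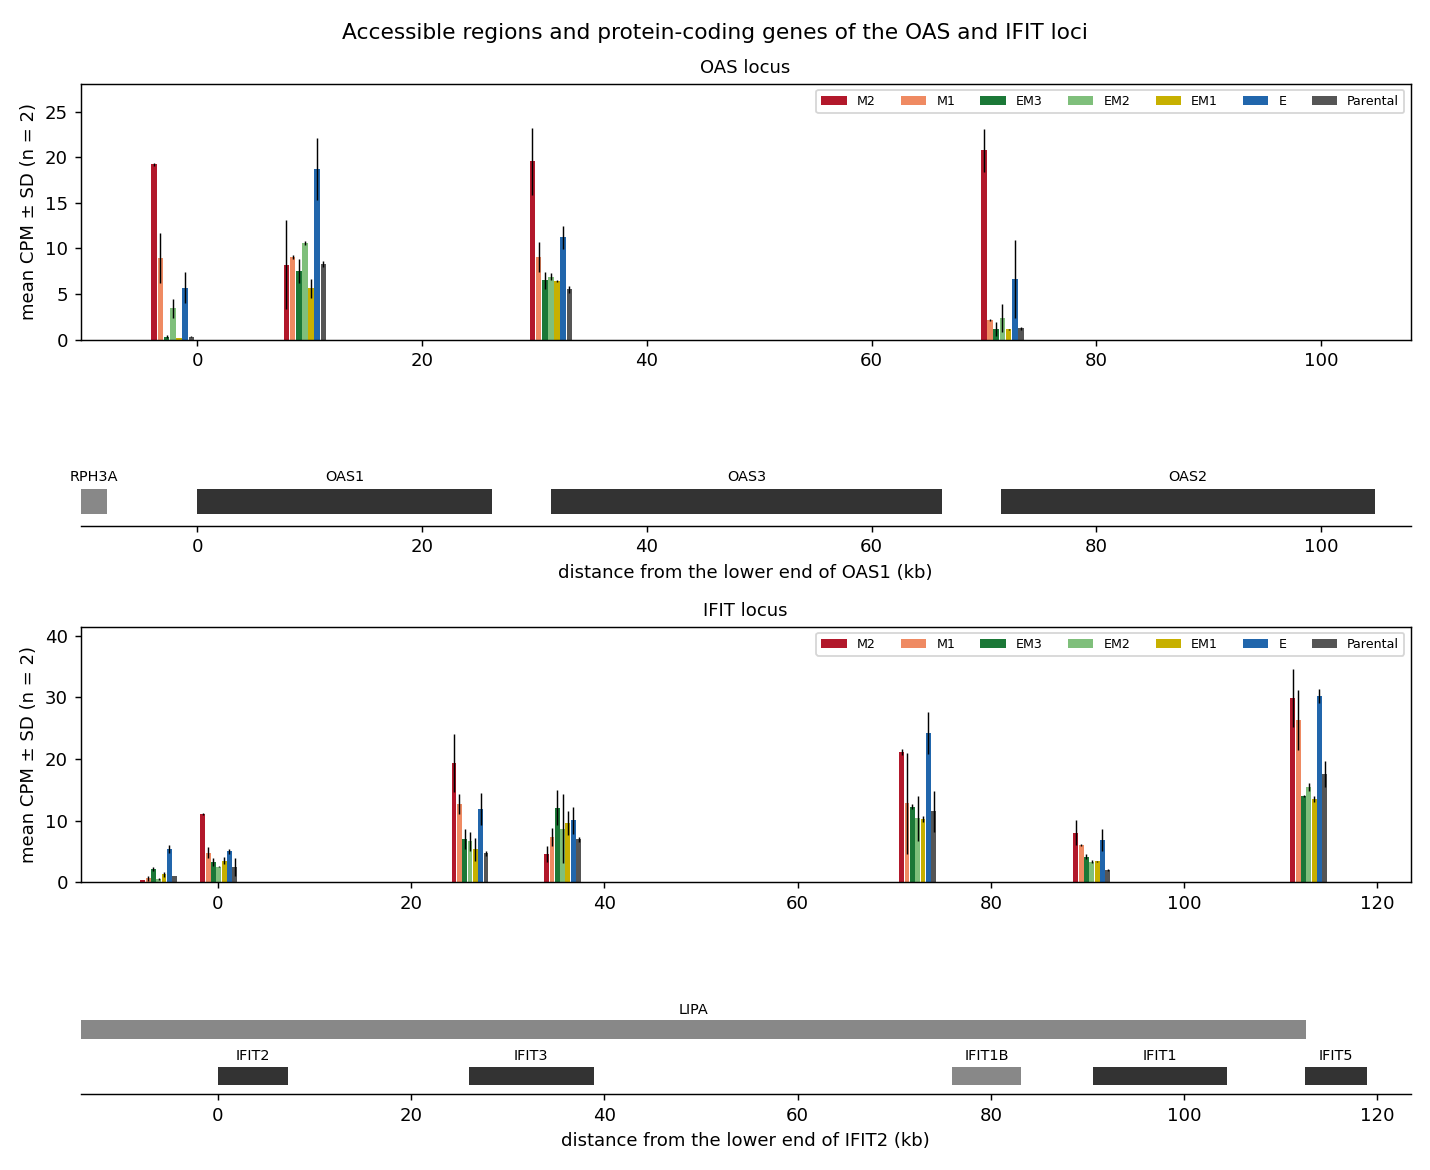
Maps of the OAS and IFIT loci, with distance in kb on the x axis, mean CPM ± SD (n = 2) of the 7 groups as bars on the y axis, fanned out around each region's position, and protein-coding genes below. M2 has the tallest bar upstream of OAS1 and over the starts or lower ends of OAS3, OAS2, IFIT2, IFIT3 and IFIT1, and E has it inside OAS1.

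MX1 encodes a dynamin-like GTPase that traps viral nucleocapsids. No region of the table started in its window on chromosome 21, so its accessibility has no value here. The nearest regions lay 23.5 kb and 53.4 kb below MX1, inside its neighbour MX2, and 154 kb above it. In the nearer of the MX2 regions the level was 3.69 ± 0.46 CPM in M2, 3.05 ± 1.7 CPM in M1 and 12.4 ± 4.0 CPM in E, against 7.52 ± 3.0 CPM in Parental (SD, n = 2 each). Of these, the lower level in M1 was called (log2 change -1.34, adjusted p = 0.0323). In the farther region M2 was called higher than Parental (log2 change 0.84, adjusted p = 0.0205).

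IFI44L encodes an interferon-induced protein of unclear action. Its window on chromosome 1 held a region only at the start of the paralogue IFI44 (chr1:78649678-78649915), and none at the start of IFI44L itself. That region had 7.22 and 8.86 CPM in M2 and 7.40 and 6.81 CPM in E, against 3.36 and 2.80 CPM in Parental. M1 had 4.78 and 4.56 CPM, and the EM libraries had 2.57 to 5.79 CPM. M2 and E were above all other libraries, with log2 changes of 1.39 (SE 0.31, adjusted p = 0.00147) and 1.20 (adjusted p = 0.0275). The call in E was lost without E replicate 1 (1.14, adjusted p = 0.0999).

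In M2, the OAS and IFIT loci were more open than in Parental at their gene ends. Against Parental, 8 of the 12 regions were called higher in M2 and 0 lower, where 32.1% of all 65771 tested regions were called higher and 34.9% lower. The median log2 change of the members was 1.61, against -0.01 over all regions. All 7 members at a gene end were higher, where 42.8% of the 12333 regions within 1 kb of a gene end were higher in M2. The surroundings differed too: over the fixed 10 Mb bin that holds each locus, the median log2 change in M2 was 0.89 at OAS (110 to 120 Mb, 188 regions), 0.45 at IFIT (80 to 90 Mb, 172 regions) and -0.57 at IFI44L (70 to 80 Mb, 176 regions). With that local median removed, IFIT5 lost its call (0.32, adjusted p = 0.163), and the regions inside OAS1, below IFIT2 and inside IFIT3 were called lower, at -0.93, -1.76 and -1.07 (adjusted p = 0.0341, 0.0304 and 0.0414). OAS3 then stood at 0.93, OAS2 at 3.18 and the region upstream of OAS1 at 5.03, all still called. DNA copy number was not measured, and its part in the local shift was not tested.

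In M1, 5 of 12 regions were called higher than in Parental and 0 lower, where 19% of all regions were called higher and 23.4% lower. They were the region upstream of OAS1 and the starts of OAS3, IFIT3, IFIT1 and IFIT5. The median log2 change of the members was 0.66, against 0.01 over all regions, and 4 of the 7 gene-end members were higher where 9.58% of all gene-end regions were. Without Parental replicate 2, the calls at OAS3 and IFIT5 were lost and 3 were left. The OAS3 call was also lost without Parental replicate 1 (0.66, adjusted p = 0.158), without M1 replicate 2 (0.51, adjusted p = 0.225) and with the local median removed (0.63, adjusted p = 0.0648), and the IFIT5 call without M1 replicate 1 (0.42, adjusted p = 0.16). Set directly against M1, M2 was higher at 5 of 12 regions and lower at 0, where 27.2% of all regions were higher and 29.1% lower in M2. These were the region upstream of OAS1, OAS3, OAS2, IFIT2 and IFI44. Over the 10 Mb bin that holds OAS, the median log2 change from Parental was 0.89 in M2 and 0.096 in M1. With the local medians removed, the changes from Parental in M2 and M1 were 5.03 and 4.72 upstream of OAS1 and 0.93 and 0.63 at OAS3. They were 3.18 and 0.68 at OAS2, 1.70 and 0.87 at IFIT2, and 1.96 and 0.42 at IFI44. The count of 5 was made without removing these medians. The count was 2 without M2 replicate 2 and 2 without M1 replicate 2, and only the OAS2 and OAS3 calls held without each library in turn.

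In E, 9 of 12 regions were called higher than in Parental and 0 lower, where 5.27% of all regions were called higher and 6.31% lower. The median log2 change of the members was 1.19, against 0.03 over all regions, and it was above 0 at all 12. Of the 7 gene-end members, 6 were higher, where 2.58% of gene-end regions were. These calls depended on single libraries. Without E replicate 1, 4 were left, at the region upstream of OAS1 (4.45, adjusted p = 0.00177), below IFIT2, at IFIT1 (1.47, adjusted p = 0.0379) and at OAS3 (1.13, adjusted p = 0.0485), while the called regions in the whole table fell to 3391, against 7610 with it. Most of the 9 calls were lost without Parental replicate 1 and also without Parental replicate 2, and the calls in the whole table fell too. The change upstream of OAS1 was 4.43 and 3.96 in these fits and stayed called in both. At the lower end of IFIT2, which was not among the 9, the change in E was 1.79 without Parental replicate 1, where it became called. It was 0.54 without Parental replicate 2. With the local median removed, 5 calls were left. Set directly against E, M2 was higher at 4 of 12 regions and lower at 3, where 29.2% of all regions were higher and 31.3% lower in M2. The higher ones were the region upstream of OAS1, OAS3, OAS2 and IFIT2. The lower ones were the regions inside OAS1, below IFIT2 and inside IFIT3.

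The EM clones had few calls against Parental, both at these loci and over all regions. In EM2, 1 of 12 regions was called higher, upstream of OAS1, where 3.02% of all regions were. In EM3 and EM1, edgeR called 0 of 12 regions, where 3.11% and 0.628% of all regions were called in either direction. At an unadjusted p under 0.05 there were 1 in EM3 and 2 in EM1, and DESeq2 called 0 in each. Among the EM clones, the region upstream of OAS1 was higher in EM2 than in EM1, at a log2 change of 4.36 (SE 0.56, adjusted p = 0.000332) and lower in EM3 than in EM2, at a log2 change of -3.64 (SE 0.51, adjusted p = 0.000668), and both calls held without each library in turn. It was the 1 region of 12 called for EM2 versus EM1, where 12.2% of all regions were called. For EM3 versus EM2, 2 of 12 regions were called, where 11.8% of all regions were, the other being the region below IFIT2 (2.13, adjusted p = 0.0299), a call lost without each of the EM3 and EM2 libraries in turn. For EM3 versus EM1 there were 0 of 12 by edgeR, 0 at an unadjusted p under 0.05, and 0.0471% of all regions; DESeq2 was not run on this pair.

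Set against E in place of Parental, the EM clones were lower. EM1 was lower at 9 of 12 regions where 9.14% of all regions were lower, and EM3 and EM2 were each lower at 5, where 8.87% and 9.87% of all regions were. IFIT5 was in all 3 sets, at log2 changes of -1.16 (SE 0.19) in EM1, -1.11 (SE 0.19) in EM3 and -0.97 (SE 0.19) in EM2, and these 3 calls held without each library in turn. The region upstream of OAS1 was lower too, at log2 changes of -5.10 in EM1 and -4.39 in EM3, and was called without each library in turn. Without E replicate 1, the counts were 4 in EM1, 3 in EM3 and 2 in EM2, and the calls at OAS2, OAS3, IFIT3 and IFIT1 were among those lost. The EM1 count was 5 without EM1 replicate 1 and 4 without EM1 replicate 2, the EM3 count 3 and 2 without its replicates 1 and 2, and the EM2 count 2 without EM2 replicate 2 and 3 without EM3 replicate 1. These comparisons share the E libraries.

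**Figure D3:**
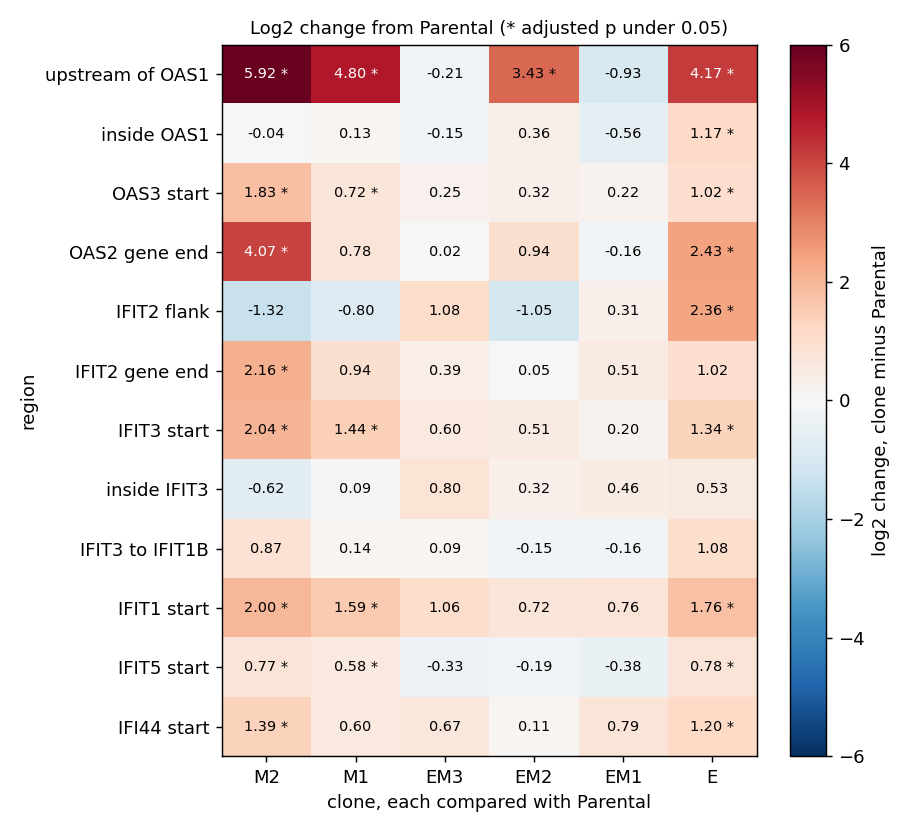
Log2 changes from Parental (colour and printed value) of the 12 regions (rows) in the 6 clones (columns), with an asterisk for an adjusted p under 0.05 by edgeR. M2 has 8 asterisks, M1 has 5, E has 9, EM2 has 1, and EM3 and EM1 have none. All columns share the Parental libraries.

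Summed over its 4 regions, the OAS locus had 67.1 and 68.5 CPM in M2, 30.0 and 28.3 CPM in M1, 24.1 and 22.4 CPM in EM2 and 40.8 and 43.7 CPM in E, against 15.2 and 15.4 CPM in Parental. EM3 held 15.7 and 15.3 CPM and EM1 12.7 and 13.9 CPM. Summed over its 7 regions, the IFIT locus had 87.6 and 101 CPM in M2, 78.9 and 62.7 CPM in M1 and 99.8 and 87.7 CPM in E, against 52.0 and 40.7 CPM in Parental, with 40.8 to 58.7 CPM in the EM libraries. At OAS the 7 groups overlapped only where EM3 and Parental met, whereas at IFIT the libraries of M2 and E overlapped, and so did those of the EM clones and Parental.

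Across the 14 libraries the members did not all vary together. Log2 CPM of the OAS3 and OAS2 regions correlated at 0.92 and that of the IFIT3 and IFIT1 starts at 0.91 (Pearson r, 14 libraries), while the region upstream of OAS1 and the region inside IFIT3 stood at -0.53. The libraries share clones and the large M2 difference, so these values are descriptions.

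The other genes of the interferon pathway were read at regions within 1 kb of a gene end, 105 regions in 5 lists. In M2, 52 were called higher and 15 lower, or 49.5% and 14.3%, where 42.8% and 19.5% of all gene-end regions were, so the share in M2 was near the background. In M1, 11 were higher and 12 lower, where 9.58% and 14.1% of all gene-end regions were. In E, 6 were higher and 1 lower, where 2.58% and 3.08% were. EM3 had 0 higher and 2 lower (0.251% and 1.73% of gene-end regions), EM2 had 0 and 5 (1.9% and 2.94%), and EM1 had 0 and 1 (0.073% and 0.397%). DESeq2 called 6 regions in EM3, 5 in EM2 and 3 in EM1. The median log2 change over the 105 regions was 0.46 in M2, 0.10 in M1 and 0.18 in E, where the medians of all gene-end regions were 0.36, 0.02 and 0.11.

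Of 13 ligand and receptor genes, 3 had a region. IFNAR1, a chain of the type I interferon receptor, had 45.1 ± 7.9 CPM in M2, against 20.3 ± 2.2 CPM in Parental (SD, n = 2 each; log2 change 1.15, adjusted p = 6.8e-05), and was not called in the other clones. IFNGR2, of the type II receptor, was called in M1 only (0.88, adjusted p = 0.0367), and IFNGR1 in no clone. Differences between the clones were not tested for these genes. Among 26 regions of JAK-STAT and IRF genes, 17 were higher and 3 lower in M2, 1 and 3 in M1, and 1 and 0 in E. STAT2, a subunit of the ISRE-binding complex, had 86.4 ± 4.3 CPM in M2 and 51.4 ± 2.7 CPM in Parental (0.75, adjusted p = 0.000176), and STAT3, which carries interleukin signals, changed by 1.11 (adjusted p = 5.88e-06). JAK2, a kinase of the type II receptor, was not called in any clone against Parental.

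Among 23 regions of nucleic acid sensors and adaptors, 10 were higher and 4 lower in M2, 2 and 3 in M1, and 0 and 1 in E. MYD88, the adaptor of Toll-like receptors, had 0.745 ± 0.081 CPM in M2, 0.338 ± 0.18 CPM in M1 and 4.57 ± 1.1 CPM in E, against 14.8 ± 1.3 CPM in Parental, and was called lower in each. It was also called lower in EM2 (4.12 ± 2.7 CPM, log2 change -1.84, adjusted p = 0.0128). MAVS, the mitochondrial adaptor of RNA sensing, was lower in M2 (-2.93, adjusted p = 2.02e-05), M1 (-1.94, adjusted p = 0.000595) and EM3 (-1.72, adjusted p = 0.0202). TBK1, the kinase that activates IRF3, was higher in M2 (0.94, adjusted p = 0.000296), and the DNA sensor IFI16 was higher in M2 (1.59, adjusted p = 2.71e-05) and M1 (0.72, adjusted p = 0.0155). The named sensors and adaptors thus moved in both directions.

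Among 38 other interferon-induced effectors with a region, of 65 in the list, 19 were higher and 6 lower in M2, 5 and 4 in M1, and 5 and 0 in E. SLFN11, which stalls replication in damaged cells, had 20.99 ± 7.5 CPM in M2 and 0.481 ± 0.039 CPM in Parental (5.42, adjusted p = 4.16e-06). LGALS3BP, a secreted galectin ligand, had 20.2 ± 1.8 CPM in M2, 10.5 ± 1.0 CPM in M1 and 5.91 ± 2.6 CPM in E, against 1.62 ± 0.23 CPM in Parental, and was called higher in the 3 clones. TRIM14 was higher in M2 (3.39, adjusted p = 5.52e-05) and lower in EM2 (-2.47, adjusted p = 0.0291). PARP12 was higher in M2 (0.71, adjusted p = 0.00233) and E (0.86, adjusted p = 0.0084). Among 14 regions of antigen presentation genes, 5 were higher and 2 lower in M2, 2 and 2 in M1, and 0 in E. HLA-B was higher in M2 and M1 (1.37 and 1.34, adjusted p = 0.000838 and 0.00178), HLA-F in M1 (0.82, adjusted p = 0.00131), TAPBP was lower in M2 (-1.23, adjusted p = 0.000302), and the immunoproteasome gene PSMB10 was lower in M2 and M1 (-0.41 and -0.70, adjusted p = 0.0136 and 0.000742).

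**Figure D4:**
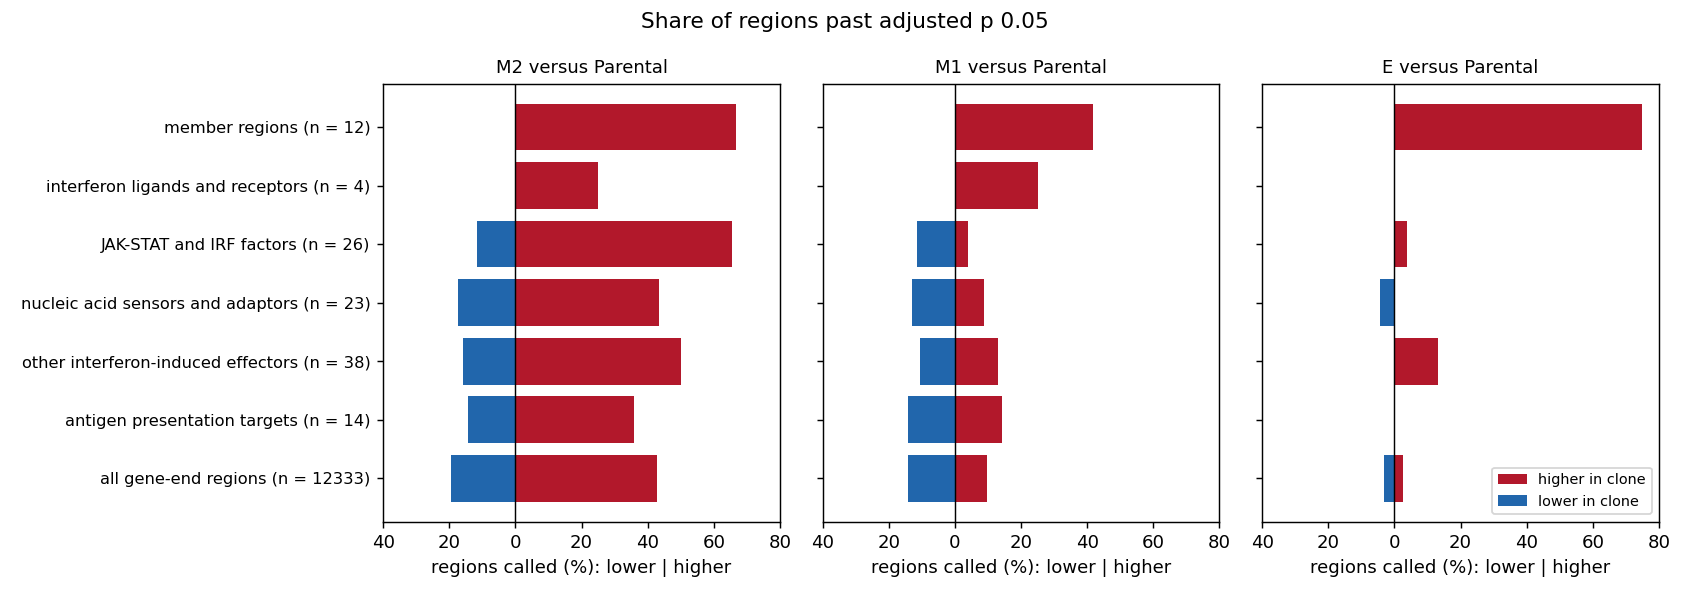
Share of regions called higher (right) or lower (left) than in Parental, in percent, for the 12 member regions, the 5 interferon lists and all gene-end regions, in M2, M1 and E. Member regions reach 8, 5 and 9 of 12, while among the lists the share called higher in M2 runs between 25% and 65.4%, on either side of the 42.8% of all gene-end regions in the bottom row.

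The regions most like the leading region of each window were sought across the genome by Pearson r of log2 CPM over the 14 libraries, which share clones. For the region inside OAS1 they lay at CD274 (0.87), NLGN3 (0.85) and HYAL4 (0.84). For IFIT5 they lay at ZNF639 (0.96), SAMD4A (0.94) and SLC12A2 (0.94), and for IFI44 at ZNF569 (0.88), NUAK2 (0.86) and ZNF142 (0.85).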

How the data were processed

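Accessibility was taken from the authors' deposited table of raw counts per library in 65774 consensus regions. The deposited interval file of the same regions carries a score column, used only to match intervals; it matched all 65774. The submitters' processing notes name the build hg38 and the tools featureCounts, deepTools, MACS2 2.1.1, Picard, Bowtie2 2.2.6, bcl2fastq 2.20.0.422 and cutadapt 1.9.1, with no role or order. The treatment of duplicates, Tn5 offsets and region merging is not stated there. The authors' 7 peak lists were not used, because the clone in each name differs from that of its sample.

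Counts were scaled by TMM and tested with edgeR 4.0.16 (R 4.3.3), by quasi-likelihood F tests on 7 group means over all 14 libraries, with Benjamini-Hochberg adjustment over 65771 regions. filterByExpr with a minimum count of 10 removed 3 regions. Calls needed an adjusted p below 0.05. Log2 CPM values used a prior count of 2, and log2 changes kept the default prior count of edgeR's fit. The common biological coefficient of variation was 0.208. SE was the log2 change fitted without a prior count, divided by the root of F. Limma 3.58.1 gave loess offsets and DESeq2 1.42.0 an alternative test.

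Members were regions starting in the 4 windows, and all were named. In each interferon list up to 4 genes were named, those with the smallest p among 7 groups at a region within 1 kb of a gene end, and the 3 most alike regions (within 10 kb of a gene end, over 5 Mb away) were named for the highest region of each window. A gene that this rule names is not reported here. Members and lists were chosen with earlier results of these data known. Genes came from a RefSeq table and promoter windows of GRCh38.p14. Alternatives were scaling, filter, DESeq2, the median of each 10 Mb window (at least 20 regions) subtracted, a fit of just the 4 libraries concerned, a block on replicate number, a distance of 10 kb, and leaving out each library, which leaves a lone library assumed to vary like the others.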

Additional observations from a re-analysis of the deposited data

How the results depend on the processing

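Of the 23 called member changes from Parental, 463 of 506 recomputed values kept their call, 43 lost it and 0 changed direction. Of the 49 changes not called, 21 of 1076 values became called and 34 changed sign. Library totals and loess offsets moved the M2 median over all regions by -0.11 and 0.13 (log2), and no other scaling moved a median by over 0.1.

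Same-numbered libraries tended to deviate together: over 21 pairs of groups their deviations correlated at 0.023 to 0.59, with 19 pairs over 0.1. Because not all pairs were and the labels name no shared batch, the numbers were not taken as pairs. With a replicate block, members called were 12 for any difference, 9 in M2, 6 in M1, 0 in EM3, 1 in EM2, 0 in EM1 and 10 in E, and pathway regions 8 in EM3 (2 without it) and 3 in EM1 (1 without it). The E member count of 9 was 5 with the window median removed. In the whole table the block gave 5482 calls in EM3, 10811 in EM2, 1601 in EM1 and 13107 in E (2047, 6043, 413 and 7610 without it). Fitting only the 4 libraries gave 5469 in EM3, 1132 in EM1 and 4447 in E, DESeq2 gave 3643 in EM3 and 1197 in EM1, and the window median removed gave 228 in EM1. Over left-out libraries these counts ran between 108 and 3189 in EM3, 2173 and 7478 in EM2, 2 and 718 in EM1 and 1235 and 9269 in E.

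Pathway counts were 67 in M2, 23 in M1, 2 in EM3, 5 in EM2, 1 in EM1 and 7 in E. Taking gene ends within 10 kb gave 161 in M2, 86 in M1, 4 in EM3, 18 in EM2 and 21 in E. With the window median removed they were 0 in EM3, 2 in EM2, 0 in EM1 and 3 in E. With only the 4 libraries compared they were 5 in EM3, 2 in EM1 and 3 in E, and with DESeq2 6 in EM3 and 3 in EM1.

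Leaving out each library gave pathway counts of 58 to 69 in M2, 13 to 26 in M1, 0 to 5 in EM3, 1 to 5 in EM2, 0 to 2 in EM1 and 0 to 9 in E. Member counts were 10 to 12 for any difference, 8 to 9 in M2, 3 to 5 in M1, 0 in EM3 and EM1, 1 in EM2 and 1 to 10 in E. They were 2 to 6 for M2 versus M1, 2 to 6 for EM3 versus E, 2 to 7 for EM2 versus E and 4 to 9 for EM1 versus E, alternatives chosen after seeing the data.

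None of the reversed values was called. The region inside OAS1 in M2 stood at 0.29 with loess offsets and -0.81 to 0.49 over left-out libraries. OAS2 in EM3 stood at -0.026 with DESeq2 size factors, -0.17 with loess offsets, -0.059 with the replicate block, -0.052 with the window median removed, -0.055 with DESeq2 and -1.01 to 0.48 over left-out libraries. IFIT2 in EM2 stood at -0.025 with the window median removed and -0.50 to 0.82 over left-out libraries. Over left-out libraries, the region inside IFIT3 ranged from -0.13 to 0.30 in M1 and -0.55 to 0.87 in EM2, and that between IFIT3 and IFIT1B from -0.67 to 0.69 in M1, -0.21 to 0.42 in EM3, -0.56 to 0.18 in EM2 and -0.46 to 0.17 in EM1. In EM3 the region upstream of OAS1 ranged from -0.80 to 0.38, that inside OAS1 from -0.35 to 0.030 and IFIT2 from -0.16 to 1.17. IFI44 in EM2 ranged from -0.26 to 0.41. In EM1 the region below IFIT2 ranged from -0.0094 to 0.58, IFIT2 from -0.033 to 1.28 and IFIT3 from -0.25 to 0.51. The causes were not tested. With 7 counts in Parental and 4 in EM1 upstream of OAS1, depth limits the size of that fold.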

Other observations

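There were 18 regions within 100 kb outside the 4 windows. Against Parental, 10 were called higher and 4 lower in M2, where 32.1% and 34.9% of all regions were. In M1, 7 were higher and 2 lower, where 19% and 23.4% were. In EM2, 2 were higher and 0 lower, where 3.02% and 6.17% were. In E, 5 were higher and 0 lower, where 5.27% and 6.31% were. A pair of regions inside SLC16A12, a creatine transporter gene beside the IFIT genes, was nearly closed in the EM clones and Parental. The first (chr10:89515570-89515853) had 17.7 ± 5.7 CPM in M2, 9.52 ± 2.3 CPM in M1 and 3.06 ± 1.7 CPM in E, against 0.478 ± 0.16 CPM in Parental (SD, n = 2 each). The other (chr10:89519430-89519739) had 13.1 ± 3.7 CPM in M2, 7.32 ± 4.1 CPM in M1 and 2.65 ± 3.3 CPM in E, against 0.224 ± 0.20 CPM in Parental, and was not called in E (adjusted p = 0.0692).

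Above the OAS genes, an intergenic region (chr12:113040652-113041239) had 82.9 ± 12 CPM in M2, 43.2 ± 7.9 CPM in M1 and 30.5 ± 13 CPM in EM2, against 9.46 ± 1.4 CPM in Parental, and was called higher in the 3 clones (log2 changes 3.13, 2.19 and 1.69, edgeR adjusted p = 5.83e-06, 0.000192 and 0.00816). Below OAS1, a region inside RPH3A (chr12:112839324-112839788) was highest in M1, with 27.0 ± 9.7 CPM, against 5.90 ± 0.73 CPM in M2 and 0.399 ± 0.20 CPM in Parental. Near IFI44L, a region inside PTGFR (chr1:78520020-78520718) was called higher in M1 and lower in M2, with 19.4 ± 7.4 CPM in M1 and 0.535 ± 0.43 CPM in M2, against 3.56 ± 1.3 CPM in Parental.

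After their values were seen, the regions upstream of OAS1 and at OAS2 were also set against the genome. Over the 14 libraries, which share clones, log2 CPM upstream of OAS1 was most like that at MSX1 (Pearson r 0.97), ATP6V1E2 (0.96) and FNIP1 (0.96), and OAS2 was most like PNRC1 (0.97), LFNG (0.96) and PIK3IP1 (0.96). At MSX1 the means were 36.8 CPM in M2, 24.8 CPM in M1, 16.3 CPM in EM2 and 15.7 CPM in E, against 6.38 CPM in Parental, with 5.94 CPM in EM3 and 5.29 CPM in EM1. MSX1 was picked by this correlation, so it is no separate result that the same 4 groups were high as upstream of OAS1.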
